A study of Mus musculus with 9 samples.

Results

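The 8 genes described here encode receptors that guide natural killer (NK) cells between blood, spleen, lymph node, bone marrow and liver. They were the chemokine receptor genes Cxcr3, Cxcr4, Cxcr5, Cxcr6, Ccr2 and Ccr7 and the sphingosine-1-phosphate (S1P) receptor genes S1pr1 and S1pr5. They were chosen by name, through the mouse Entrez identifier of each symbol, and all 8 were found among the 27179 genes of the count tables. The choice was made with earlier results of these data known, so shares set beside those of all genes are a description only. RNA sequencing had been run on splenic NK cells of C57BL/6 mice in a study of the protein ID2 and the response to interleukin-15 (IL-15), the cytokine that NK cells need to survive. Id2-null NK cells grown in IL-15 for 7 days gave 3 libraries, and wild-type (WT) NK cells grown in the same way gave 3. A further 3 libraries, 1 each, came from WT populations named Immature, M1 and M2 that were sorted from spleen and not cultured. The labels number the cultured samples 1 to 6 and the sorted ones 7 to 9 without naming them, and these numbers were read in listed order, which limits every comparison. The sources used here do not give how Id2 was removed, the sort markers, or the number, age and pooling of the mice. Nor do the labels say whether replicates came from separate mice, so p-values reflect the spread among these libraries alone, which may be technical.

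Chemokine receptors and S1P receptors are membrane proteins with several spans that signal through heterotrimeric G proteins, mostly of the Gi class. A chemokine receptor draws a cell towards, or holds it near, cells that release its ligand, whereas S1P receptors draw cells towards the high S1P of blood and lymph and so out of a tissue. In mouse NK cells CXCR4 is known for retention in bone marrow, S1PR5 for exit from bone marrow and lymph node, CXCR3 and CCR2 for entry into inflamed tissue, and CXCR6 for residence in liver. CXCR5 and CCR7 are best known from B cells and T cells, which they direct to follicles and to T cell zones. ID2 has a helix-loop-helix domain but no DNA-binding region. It binds E proteins, transcription factors that recognise the E-box sequence CANNTG, and keeps them off DNA.

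Promoter sequence was taken for the genes on which the comparisons turn and for which the RefSeq table of GRCm38.p6 had an entry, and each run holds the 250 bases before the gene's start, read 5′ to 3′ on the gene's own strand. Cxcr3 and Cxcr6 are shown because Id2-null and WT cultures differed in them in opposite directions, and S1pr5 because it differed most between cultured and sorted cells. Capitals mark the match to the E-box CANNTG.
Cxcr3, chrX:101734148-101734397, minus strand: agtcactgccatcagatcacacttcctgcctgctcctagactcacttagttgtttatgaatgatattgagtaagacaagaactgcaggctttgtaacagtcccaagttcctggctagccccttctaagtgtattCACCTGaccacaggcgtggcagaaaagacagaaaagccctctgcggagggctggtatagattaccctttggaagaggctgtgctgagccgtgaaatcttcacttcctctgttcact
Cxcr6, chr9:123806227-123806476, plus strand: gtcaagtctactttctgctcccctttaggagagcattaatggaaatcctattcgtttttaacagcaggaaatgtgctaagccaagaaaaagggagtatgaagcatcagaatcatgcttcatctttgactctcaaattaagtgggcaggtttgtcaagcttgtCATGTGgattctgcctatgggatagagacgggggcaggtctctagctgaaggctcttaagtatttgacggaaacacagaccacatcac
S1pr5, chr9:21248444-21248693, minus strand: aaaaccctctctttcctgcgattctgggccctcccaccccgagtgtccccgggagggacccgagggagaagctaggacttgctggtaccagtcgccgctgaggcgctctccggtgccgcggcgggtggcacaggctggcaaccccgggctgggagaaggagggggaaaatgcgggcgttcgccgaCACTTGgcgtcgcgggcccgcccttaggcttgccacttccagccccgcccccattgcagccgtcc
The table held 5 of the 8 genes, the other two being Cxcr4 and Ccr2. A match to CANNTG stood 116 bases before the start in Cxcr3, 88 in Cxcr6 and 65 in S1pr5, and the Cxcr4 window had no match to these letters. In Ccr2 a match stood 108 bases before the start that the promoter window used. That window, 124101933 to 124102182, lies within the Ccr2 span given below, 124101918 to 124109140, and so not before the start of that span. Of 32851 promoter windows of the same length, 66.2% held a CANNTG, so that a match is common. The match in Cxcr3 has the form CAGGTG, which is written CACCTG on the strand shown and which 17.2% of windows held on either strand. The form CAGCTG, in 13.0% of windows, and the T-box core GGTGTGA, in 3.33%, had no match in the 5 windows. Both strands were searched, and CAGCTG and CAGGTG are forms of CANNTG. These matches are letters in a sequence and not measured binding.

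Id2 itself followed the labels, with 56, 113 and 44 counts in the Id2-null libraries, against 1958, 1925 and 1945 in the WT cultures. All 8 NK cell marker genes, such as Ncr1 and Eomes, had counts in every library, the lowest being 763 counts of Gzma. Libraries held 4128414 to 4831831 counts in 13888 to 14432 genes. Levels are CPM, that is, counts brought to a common library size, with TMM scaling over the 9 libraries. Where a library has a count of 0, its level may be as high as 0.578 to 0.764 CPM, the worth of 3 counts there, for counting error alone. Xist, the RNA of the inactive X chromosome, averaged 781 CPM in Id2-null cultures and 0.663 CPM in WT cultures, and 4 of 4 Y-linked genes ran the other way (Ddx3y 0.489 CPM in Id2-null cultures and 74.7 CPM in WT cultures). Sex and genotype therefore cannot be told apart in any of the comparisons between cultures, and Cxcr3 lies on the X chromosome. Replicate 3 stood apart from replicates 1 and 2 in both genotypes.

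Of the 8 receptor genes, 7 had enough counts to be tested between Id2-null and WT cultures, and S1pr5 had not. Cxcr5 and Cxcr3 rose in Id2-null cultures, Cxcr6 fell, and Cxcr4, Ccr2, Ccr7 and S1pr1 did not pass the test. The test was edgeR's quasi-likelihood test with Benjamini-Hochberg adjustment over 11022 genes, and calls were made at adjusted p-values under 0.05. Across all tested genes 203 were called higher (1.84%) and 167 lower (1.52%), 370 in all (3.36%). With replicate number as a block, 371 genes were called higher and 325 lower, and 3 receptor genes were higher and 1 lower. The median log2 fold change was 0.89 over the 7 tested receptor genes, against 0.011 over all tested genes. That median is the value of Cxcr4, which did not pass. In bulk libraries such as these, more cells that express a gene and more RNA per cell cannot be told apart.

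**Figure D1:**
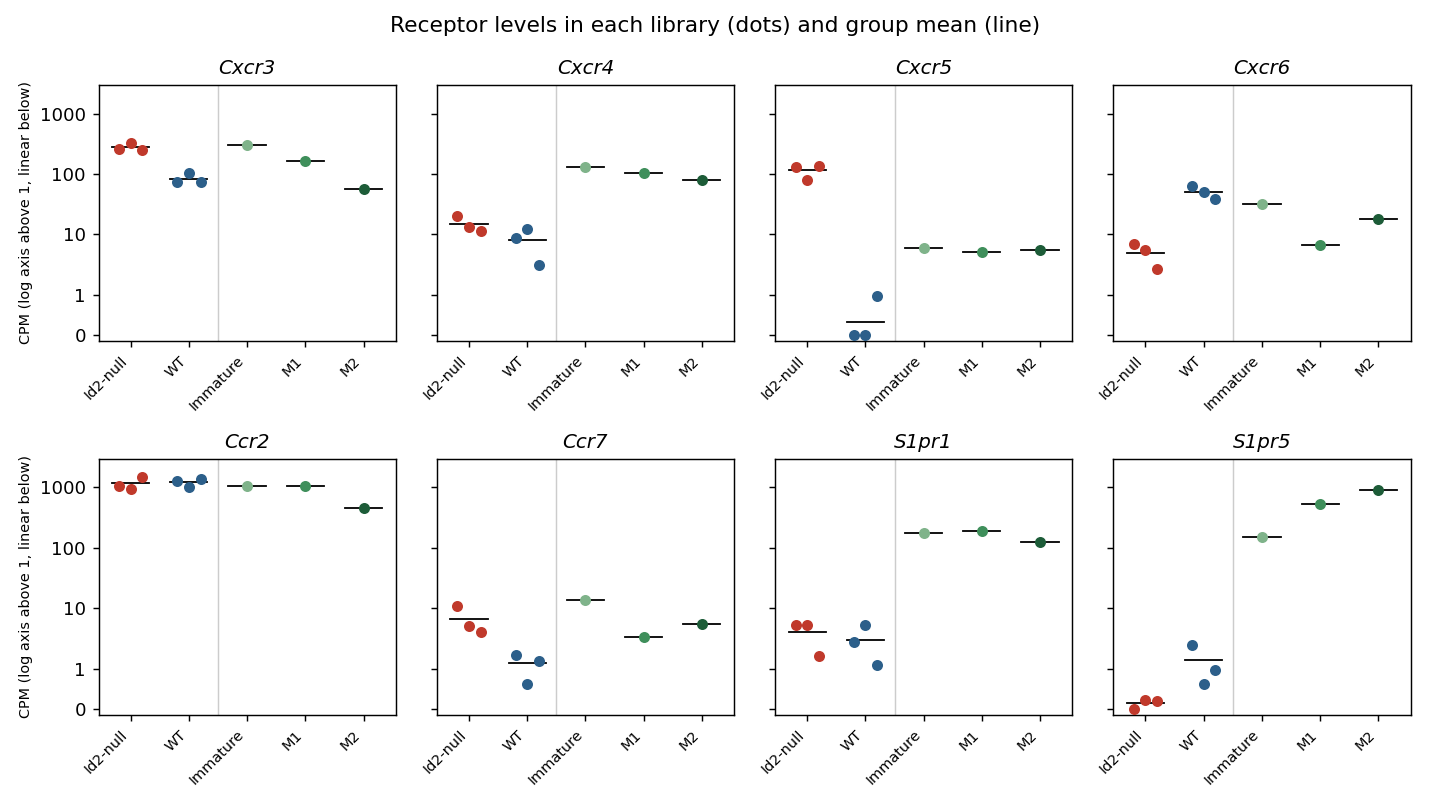
Level of each receptor gene in each library, in TMM-scaled CPM on an axis that is logarithmic above 1 CPM and linear below, with Id2-null cultures left of WT cultures and the sorted Immature, M1 and M2 libraries at the right; points are single libraries and lines are group means. Cxcr3 and Cxcr5 stand higher and Cxcr6 lower in all 3 Id2-null cultures than in any WT culture, and Cxcr4, S1pr1 and S1pr5 are lower in all 6 cultures than in any sorted library.

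Cxcr5 (Entrez 12145, chromosome 9, 44511787 to 44526444, GRCm38, protein-coding) encodes the receptor for CXCL13, which leads B cells and follicular helper T cells into follicles. It had 133, 78.4 and 134 CPM in the Id2-null cultures, from 605, 371 and 656 counts, against 0, 0 and 0.963 CPM in the WT cultures, where replicate 3 held all 5 counts. Every Id2-null library was far above every WT library, and the sorted libraries lay between (Immature 5.86 CPM, M1 5.07 CPM and M2 5.51 CPM). The means were 115 ± 31.8 CPM in Id2-null cultures and 0.321 ± 0.556 CPM in WT cultures (SD, n = 3 each). The log2 fold change was 8.32 (SE 0.58, 95% interval 6.97 to 9.66, edgeR adjusted p = 0.000534). It rests on the 5 counts of WT replicate 3. Summed over libraries, 1632 counts in Id2-null cultures and 5 in WT cultures gave a ratio of 341 (95% interval 146 to 1051, counting error only). Without WT replicate 3 the WT cultures held 0 counts, and the fitted log2 fold change was 12.10, a value that then depends on the prior count and is no bound.

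The reads of Cxcr5 were looked at for other sources. Its exons share 110 bases with Bcl9l, a gene on the opposite strand that encodes a Wnt co-activator, and 1.86% of the 50-base windows of its transcripts also occur in Bcl9l. Bcl9l rose too, with 88.0 CPM in Id2-null cultures and 42.1 CPM in WT cultures (log2 fold change 1.07, edgeR adjusted p = 0.00555). The sources used here do not give the strand setting of the counting. The part of such shared reads in the Cxcr5 counts was not tested. The 7 B cell markers summed to 1.22 to 2.11 CPM in Id2-null cultures, against 1.04 to 1.46 CPM in WT cultures, with Ms4a1 and Pax5 at 0 in both. Outside that list the immunoglobulin-related genes Ighm and Jchain were called higher in Id2-null cultures (log2 fold changes of 2.73 and 6.52, edgeR adjusted p = 0.000937 and 0.00546). The 8 T cell markers, given in full with Cxcr3, were higher in sum, at 363 to 486 CPM in Id2-null cultures, against 156 to 326 CPM in WT cultures. The part of either cell type in the Cxcr5 difference was not tested.

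Cxcr3 (Entrez 12766, chromosome X, 101731535 to 101734147) encodes the receptor for CXCL9 and CXCL10, which are made under interferon gamma, and its promoter is the first of those printed above. It had 256, 327 and 248 CPM in the Id2-null cultures, against 74.0, 103 and 73.0 CPM in the WT cultures. The genotypes did not overlap, and the Id2-null levels were near the 304 CPM of the Immature library. The means were 277 ± 43.7 CPM in Id2-null cultures and 83.3 ± 17.1 CPM in WT cultures (SD, n = 3 each), a 3.34-fold difference (log2 fold change 1.74, SE 0.18, 95% interval 1.31 to 2.16, edgeR adjusted p = 0.00321). With 1163 to 1548 counts in an Id2-null library and 355 to 495 in a WT library, the 95% counting intervals of the genotypes did not overlap either. Markers of T cells, which can also express Cxcr3, were present in both genotypes. Beside the sums given with Cxcr5, Cd4 was at 0 in all 6 cultures, 4 markers were tested and none passed without the block, and with the block 3 were higher and 1 lower. Cd8a averaged 1.07 CPM in both genotypes. Cd8b1 averaged 0.212 CPM in Id2-null cultures and 0.203 CPM in WT cultures, and Cd5 0.138 CPM and 0.139 CPM in the same order. Cd3d, a subunit of the T cell receptor complex, averaged 115 CPM in Id2-null cultures and 27.9 CPM in WT cultures (edgeR adjusted p = 0.0689, with the block 0.0026), and Cd28 169 CPM and 119 CPM in the same order (adjusted p = 0.122, with the block 0.0332). Cd3g and Cd3e, subunits of the same complex as Cd3d, went opposite ways. Cd3g averaged 108 CPM in Id2-null cultures and 36.4 CPM in WT cultures (edgeR adjusted p = 0.195, with the block 0.0218), whereas Cd3e averaged 14.7 CPM in Id2-null cultures and 39.1 CPM in WT cultures (adjusted p = 0.402, with the block 0.0327). Their part in the Cxcr3 difference was not tested.

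Cxcr6 (Entrez 80901, chromosome 9, 123806477 to 123811754) encodes the receptor for CXCL16, known in mouse liver for holding NK cells, NKT cells and type 1 innate lymphoid cells (ILC1) in the sinusoids. It had 6.82, 5.50 and 2.65 CPM in the Id2-null cultures, against 62.5, 51.4 and 38.7 CPM in the WT cultures. It was low in every Id2-null library and the genotypes did not overlap, and within each genotype replicate 3 was the lowest. The means were 4.99 ± 2.13 CPM in Id2-null cultures and 50.9 ± 11.9 CPM in WT cultures (SD, n = 3 each). The level was 10.2-fold lower in Id2-null cultures (log2 fold change -3.34, SE 0.33, 95% interval -4.11 to -2.58, edgeR adjusted p = 0.00226). The gene lies within Fyco1 on the opposite strand without sharing exon bases, and Fyco1 averaged 25.02 CPM in Id2-null cultures and 38.1 CPM in WT cultures (edgeR adjusted p = 0.249).

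ILC1 markers moved with Cxcr6. Of 6 such genes 5 were tested and 4 fell in Id2-null cultures, their median log2 fold change being -1.96 against 0.011 over all tested genes. The integrin gene Itga1 averaged 62.8 ± 9.84 CPM in Id2-null cultures and 148.6 ± 3.75 CPM in WT cultures, and the inhibitory receptor gene Cd200r1 4.84 ± 1.14 CPM in Id2-null cultures and 35.4 ± 8.68 CPM in WT cultures (SD, n = 3 each, edgeR adjusted p = 0.0036 and 0.00199). The membrane protein genes Tmem176a and Tmem176b also fell, with log2 fold changes of -1.96 and -2.50 (edgeR adjusted p = 0.00894 and 0.00131). The summed level of the list was 164 to 234 CPM in Id2-null cultures and 326 to 491 CPM in WT cultures, and in sorted cells it was 459 CPM for Immature and 107 CPM for both M1 and M2. Of the Immature sum Il7r made up 256 CPM and Tnfsf10 123 CPM, whereas Itga1 had 16.8, 9.41 and 20.3 CPM in Immature, M1 and M2. Il7r had too few counts in culture to be tested, with 0.720 CPM in Id2-null cultures and 0.946 CPM in WT cultures. Tnfsf10 was not called in culture without the block (edgeR adjusted p = 0.663) and passed with it (adjusted p = 0.0391). The part of such cells in the Cxcr6 difference was not tested.

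Ccr7 (Entrez 12775, chromosome 11, 99144199 to 99155077) encodes the receptor for CCL19 and CCL21 and opens the way into lymph nodes. Its counts were low, with 50, 24 and 20 in the Id2-null cultures, against 8, 3 and 7 in the WT cultures. The levels were 11.01, 5.07 and 4.08 CPM in Id2-null cultures, against 1.67, 0.624 and 1.35 CPM in WT cultures, without overlap. The log2 fold change was 2.44 (SE 0.53, 95% interval 1.22 to 3.67, edgeR adjusted p = 0.0541), just above the threshold. It passed with the replicate block (adjusted p = 0.0167), by DESeq2 (0.0048), without the filter on low counts (0.0348), with library sizes alone (0.0496), with a robust prior (0.0444), without Id2-null replicate 3 (0.0129) and without replicate 3 of both genotypes (0.00101). In the other settings it did not pass, with adjusted p-values of 0.0553 to 0.187. The T cell markers given with Cxcr3 stood beside this difference too, and their part in it was not tested.

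Cxcr4 (Entrez 12767, chromosome 1, 128588199 to 128592299), the receptor for CXCL12, had 20.3, 13.3 and 11.2 CPM in the Id2-null cultures, against 8.75, 12.5 and 3.08 CPM in the WT cultures. The ranges overlapped, and in both genotypes replicate 3 was the lowest. The log2 fold change was 0.89 (SE 0.46, 95% interval -0.18 to 1.95, edgeR adjusted p = 0.443), so that the data leave room for no change and for one of over 3-fold. Ccr2 (Entrez 12772, chromosome 9, 124101918 to 124109140), the receptor for CCL2, was the most abundant of the 8 in culture, also per base of transcript. It had 1055, 959.7 and 1491 CPM in the Id2-null cultures, against 1277, 1025 and 1367 CPM in the WT cultures, with replicate 3 highest in both. The log2 fold change was -0.06 with a 95% interval of -0.52 to 0.40 (edgeR adjusted p = 0.934), and it took the other sign without some single libraries. Of the 50-base windows of Ccr2, 1.91% also occur in other genes.

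S1pr1 and S1pr5 had few counts in cultures of either genotype. S1pr1 (Entrez 13609, chromosome 3, 115710433 to 115715055), which carries lymphocytes out of lymph nodes, had 24, 25 and 8 counts in the Id2-null cultures, against 13, 25 and 6 in the WT cultures. These counts gave 4.07 ± 2.11 CPM in Id2-null cultures and 3.02 ± 2.04 CPM in WT cultures (SD, n = 3 each), and the ranges overlapped. The log2 fold change was 0.43 with a 95% interval of -0.98 to 1.85 (edgeR adjusted p = 0.812). S1pr5 (Entrez 94226, chromosome 9, 21242917 to 21248443) had 0, 1 and 1 counts in the Id2-null cultures, against 12, 3 and 5 in the WT cultures. The WT counts were higher without overlap, and summed over libraries the ratio of Id2-null to WT was 0.104 (95% interval 0.0118 to 0.43, counting error only). Without the filter on low counts the edgeR log2 fold change was -3.04 (adjusted p = 0.18), which did not pass.

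**Figure D2:**
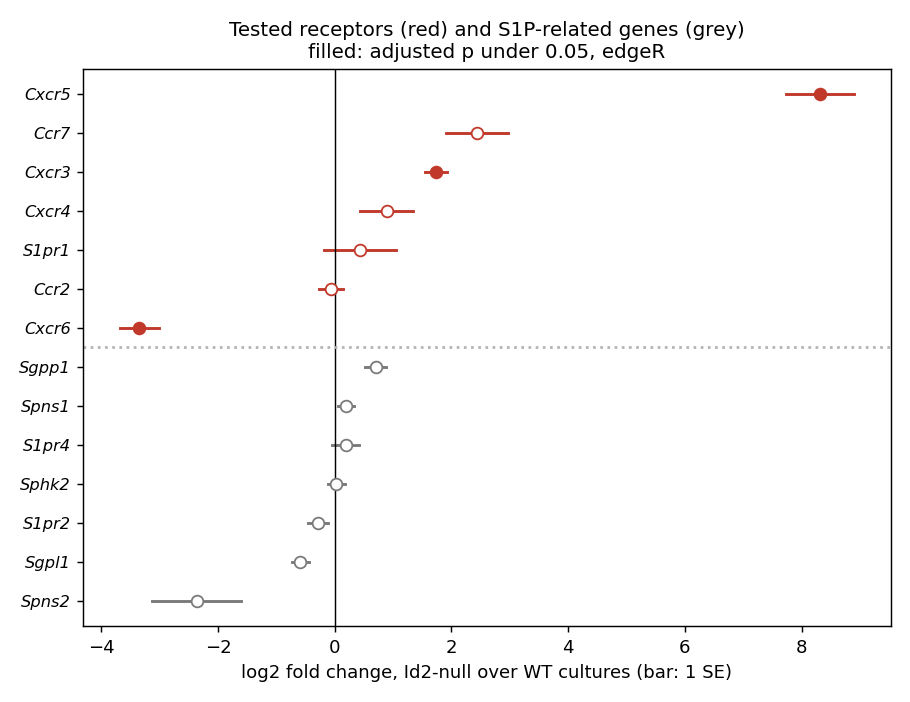
Log2 fold change of Id2-null over WT cultures from the edgeR fit, with bars of 1 SE, for the tested receptor genes in red above and the tested genes of the S1P list in grey below; filled points passed the test. Cxcr5 (8.32), Cxcr3 (1.74) and Cxcr6 (-3.34) are filled, and Ccr7 (2.44) lies above 0 with an open point.

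Among the 7 tested receptor genes, Cxcr3, Cxcr5, Cxcr6 and Ccr7 showed no overlap between genotypes, and over all tested genes 2250 of 11022 (20.4%) showed none. Both Cxcr6 and Ccr2 lie in a cluster of chemokine receptor genes on chromosome 9, the end of Cxcr6 and the start of Ccr2 being 290.2 kb apart. In that cluster Ccr9 had 0 counts in the 6 cultures, and Ccr1 and Ccr3 averaged under 1 CPM in both genotypes. Xcr1, the XCL1 receptor of cross-presenting dendritic cells, averaged 0.293 CPM in Id2-null cultures and 3.81 CPM in WT cultures (edgeR adjusted p = 0.082, with the block 0.0335).

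**Figure D3:**
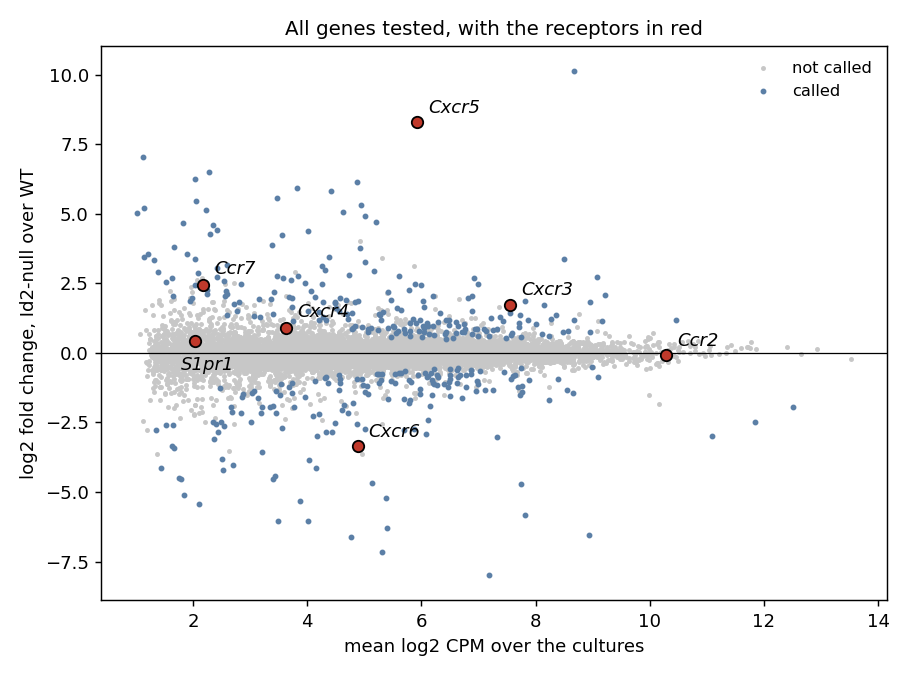
Log2 fold change of Id2-null over WT cultures against mean log2 CPM for all 11022 tested genes, with the 7 tested receptor genes named. Cxcr5 lies at 8.32 and Cxcr6 at -3.34, Cxcr3 at 1.74 combines a high level with a called difference, and Ccr2 has the highest level of the 7 and a fold change near 0.

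Other genes of the S1P and chemokine receptor systems were read from the same fit. Of 11 genes of other S1P receptors and S1P metabolism 7 were tested and none was called. In that list S1pr4, the S1P receptor of blood cells, averaged 94.2 CPM in Id2-null cultures and 82.9 CPM in WT cultures (edgeR adjusted p = 0.786), and the S1P lyase gene Sgpl1 averaged 60.1 CPM and 90.9 CPM in the same order (adjusted p = 0.0776). With the block 1 gene of the S1P list was higher and 1 lower. S1pr4 was thus the S1P receptor gene with most reads in culture, far above S1pr1 and S1pr5.

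Of 27 genes of receptor signalling and desensitisation 25 were found, 23 were tested and 1 fell. This was Rgs1, whose protein speeds the end of Gi signalling by chemokine receptors, with 25.1 ± 4.01 CPM in Id2-null cultures and 80.9 ± 27.4 CPM in WT cultures (SD, n = 3 each, log2 fold change -1.68, edgeR adjusted p = 0.0165). With the block 1 gene of the list was higher and 2 were lower. Of 11 transcription factors known to act on receptor genes of this kind 10 were found, 9 were tested and 3 rose, and with the block 4 were higher and 2 lower. Lower with the block were Tbx21 and Prdm1. Tbx21 averaged 89.3 CPM in Id2-null cultures and 136 CPM in WT cultures (edgeR adjusted p = 0.0643, with the block 0.014). Prdm1 averaged 29.8 CPM and 82.1 CPM in the same order (edgeR adjusted p = 0.345, with the block 0.00581). Foxo1, a factor known in T cells to drive Klf2 and Ccr7, averaged 270.1 ± 34.6 CPM in Id2-null cultures and 129.6 ± 8.61 CPM in WT cultures (SD, n = 3 each, edgeR adjusted p = 0.00555). Bach2, a repressor of effector genes, averaged 52.6 ± 5.72 CPM in Id2-null cultures and 20.1 ± 3.97 CPM in WT cultures (adjusted p = 0.00775). Tcf7, which encodes the factor TCF-1 of progenitor and memory lymphocytes, averaged 921 ± 131 CPM in Id2-null cultures and 218 ± 66.8 CPM in WT cultures (adjusted p = 0.0041). Klf2, chosen after its values were seen because KLF2 is known to drive S1pr1 in T cells, had 41.4, 23.5 and 5.51 CPM in the Id2-null cultures, against 8.75, 8.12 and 3.47 CPM in the WT cultures (edgeR adjusted p = 0.264, with the block 0.0289). In the sorted libraries it had 323 CPM (Immature), 739.7 CPM (M1) and 807 CPM (M2). Both Klf2 and S1pr1 were thus far lower in every culture than in any sorted library. By the rule given below, 28.8% of genes differed between WT cultures and sorted libraries, in either direction. Within the sorted libraries Klf2 was highest in M2, whereas S1pr1 was lowest there (177, 188 and 125 CPM in Immature, M1 and M2).

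The ligand genes of the chemokine receptors were almost absent. None of 11 was tested, 6 had 0 counts in all 9 libraries (Cxcl11, Ccl2, Ccl7, Ccl12, Ccl19 and Ccl21a), and the 11 summed to 1.10 to 2.24 CPM in Id2-null cultures, against 2.29 to 3.47 CPM in WT cultures. The ligand gene with most reads was Cxcl10, with 1.19 CPM in Id2-null cultures, 2.0 CPM in WT cultures, and 14.8, 22.9 and 12.03 CPM in Immature, M1 and M2. Cxcl16, the ligand of CXCR6, averaged 0.350 CPM in Id2-null cultures and 0.822 CPM in WT cultures, at or near the limit of detection.

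Across the sorted WT populations, named in order of maturation as Immature, M1 and M2, S1pr5 was higher at each step and Cxcr3 lower. With 1 library per population there is no test, and a gene was counted as different past 2-fold, among genes with 20 CPM or more in either library of a pair. Ratios are given with exact intervals that cover counting error only. Between M1 and Immature 2 of 6 receptor genes passed 2-fold, against 221 of 7437 genes (2.97%). Between M2 and M1 2 of 5 did, against 213 of 7427 (2.87%), and between M2 and Immature 3 of 6 did, against 599 of 7628 (7.85%).

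S1pr5 had 151 CPM (Immature), 528 CPM (M1) and 915 CPM (M2), from 593, 2189 and 3653 counts. The M2 level was 6.06 times that of Immature (95% interval 5.56 to 6.62), and on the fold scale the step from Immature to M1 was the larger (3.50, 3.19 to 3.84), M2 over M1 being 1.73 (1.64 to 1.83). Cxcr3 had 304 CPM (Immature), 167 CPM (M1) and 56.4 CPM (M2), and the M2 level was 5.39-fold lower than that of Immature (4.67 to 6.24). Its larger step on that scale was the later one, 2.97-fold between M2 and M1 (2.55 to 3.46). Ccr2 had 1066 CPM (Immature), 1049.9 CPM (M1) and 459 CPM (M2), so that its difference lay wholly between M2 and M1, 2.29-fold lower in M2 (2.17 to 2.42).

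Cxcr6 did not follow the order of the populations, with 32.1 CPM for Immature, 6.76 CPM for M1 and 18.0 CPM for M2. Its M1 level was 4.75-fold lower than that of Immature (3.13 to 7.43), and the interval of M2 over M1 ran from 1.70 to 4.29. Ccr7 was below 20 CPM throughout, with 13.8 CPM for Immature, 3.38 CPM for M1 and 5.51 CPM for M2. It was highest in Immature, and M2 and M1 did not differ beyond counting error (ratio 1.63, 0.798 to 3.45). Cxcr4 had 129.9 CPM (Immature), 104 CPM (M1) and 79.7 CPM (M2), a ratio of M2 over Immature of 0.613 (0.532 to 0.707). S1pr1 had 177 CPM (Immature), 188 CPM (M1) and 125 CPM (M2), with a ratio of M2 over Immature of 0.703 (0.625 to 0.789). The lower Cxcr4 and S1pr1 levels of M2 were outside counting error and within 2-fold. Cxcr5 was at 5.07 to 5.86 CPM in the 3 libraries, with a ratio of M2 over Immature of 0.941 (0.50 to 1.77), and did not differ beyond counting error.

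Markers of other cells differed between the sorted libraries too. The 7 B cell markers summed to 24.96 CPM for Immature, 29.7 CPM for M1 and 95.5 CPM for M2, with Cd79a at 26.1 CPM and Cd79b at 23.3 CPM in M2. The 8 T cell markers summed to 704 CPM for Immature, 221 CPM for M1 and 212 CPM for M2, and the 10 myeloid and dendritic markers, led by Itgax and Cd74, to 1309 CPM, 1445 CPM and 2173 CPM in the same order. Itgax, which makes up most of that sum, was lowest in M2 (959.9, 1130.3 and 837 CPM in Immature, M1 and M2). The monocyte and neutrophil genes were highest there, with Lyz2 at 56.8, 60.1 and 231 CPM and S100a9 at 39.99, 53.8 and 243 CPM in Immature, M1 and M2. In cultures the myeloid and dendritic list summed to 465 to 567 CPM in Id2-null and 388 to 593 CPM in WT, with none of its 3 tested genes called and Lyz2, S100a8, S100a9 and Adgre1 at 0. The high Cxcr3, Cxcr6 and Ccr7 of Immature thus stood beside its high T cell and ILC1 marker sums. Between M1 and M2, where Cxcr3 had its larger step, these sums were close (T cell 221 and 212 CPM, ILC1 107 CPM in both). Within them single genes went opposite ways. Of the T cell markers Cd28 was lower in M2 (142.6 CPM in M1 and 84.7 CPM in M2). The other T cell markers were all higher there, such as Cd3e (10.1 and 19.3 CPM in the same order). Of the ILC1 markers Il7r (45.1 and 34.6 CPM) and Tnfsf10 were lower in M2, and the others, such as Itga1 (9.41 and 20.3 CPM), were higher. The part of such cells was not tested. The sorted libraries also held both Xist, at 90.5 to 127 CPM, and Ddx3y, at 37.1 to 46.3 CPM.

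**Figure D4:**
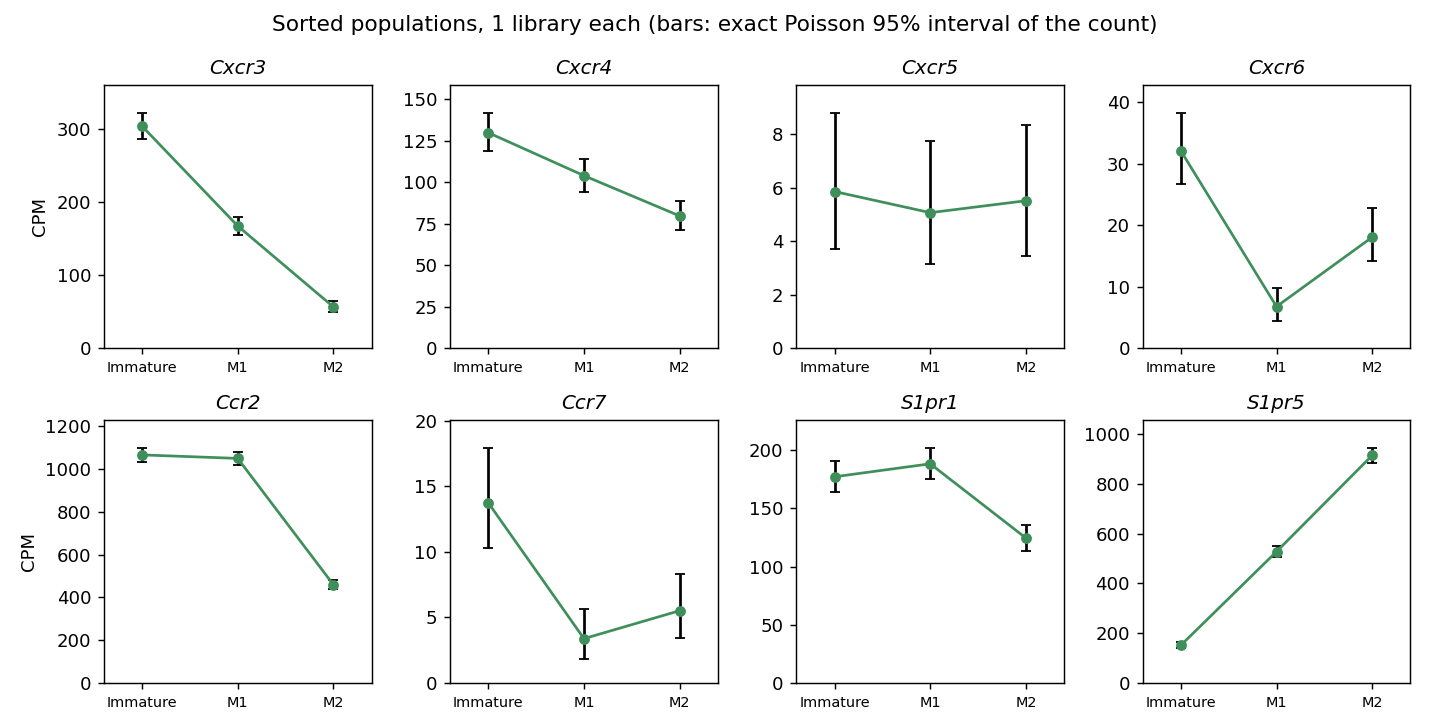
Level of each receptor gene in the sorted Immature, M1 and M2 libraries in TMM-scaled CPM, on a linear axis from 0 that has its own scale for each gene, with exact Poisson 95% intervals that cover counting error only. S1pr5 is higher at each step (151, 528 and 915 CPM) and Cxcr3 lower at each (304, 167 and 56.4 CPM), Ccr2 is lower in M2, and Cxcr6 is lowest in M1.

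The difference between genotypes was set beside the order of the sorted populations. Of 5 receptor genes with both values, 3 had opposite signs in Id2-null over WT and in M2 over Immature (60.0%), against 4063 of 7442 genes (54.6%) and 146 of 221 called genes (66.1%). Cxcr3 was higher in Id2-null cultures and lower in M2. Cxcr6 was lower in both, so that the called genes Cxcr3 and Cxcr6 did not share a pattern. Gzma, a granzyme of mature NK cells and the called gene of the NK marker list, averaged 465 CPM in Id2-null cultures and 3704 CPM in WT cultures (edgeR adjusted p = 0.0226), and in sorted cells it had 1924 CPM (Immature), 7769.7 CPM (M1) and 16607 CPM (M2).

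Set against the sorted libraries, WT cultures had far less S1pr5, S1pr1 and Cxcr4 and more Cxcr6. A gene was counted as different where the 3 WT cultures and the 3 sorted libraries did not overlap and their means were more than 2-fold apart. The sorted libraries are 3 different populations and not replicates, so no test was run, and culture, sort and any difference in handling cannot be told apart. Of 6 receptor genes at 20 CPM or more, 3 were lower and 1 was higher in WT cultures, against 2467 of 8562 genes (28.8%) that differed in either direction. S1pr5 averaged 1.36 CPM in WT cultures and 531 CPM in the sorted libraries, 390.1-fold lower in culture. S1pr1 averaged 3.02 CPM in WT cultures and 163 CPM in the sorted libraries, 54.1-fold lower, and Cxcr4 8.11 CPM and 105 CPM in the same order, 12.9-fold lower. Without WT replicate 1 the log2 ratio of S1pr5 was -9.39, against -8.61 with it, and without WT replicate 2 that of S1pr1 was -6.40, against -5.76 with it. The genes for marrow retention and for exit along S1P were thus low together in culture.

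Cxcr6 was the receptor gene that was higher in WT cultures, at 50.9 CPM against 19.0 CPM in the sorted libraries, 2.68-fold. In Id2-null cultures its 2.65 to 6.82 CPM were close to the M1 level of 6.76 CPM and below Immature and M2. Cxcr3 averaged 83.3 CPM in WT cultures, inside the sorted range of 56.4 to 304 CPM. Ccr2 overlapped as well, with 1223 CPM in WT cultures and 858 CPM in the sorted libraries. Cxcr5 and Ccr7 were below 20 CPM in the sorted libraries and lower still in every WT culture. For Id2-null cultures against the sorted libraries, 2403 of 8619 genes (27.9%) differed, with Cxcr5 higher and Cxcr4, S1pr1 and S1pr5 lower.

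The order of the levels was compared between genes as CPM per kilobase of transcript (RPKM), with the gene lengths of the deposited tables. In Id2-null cultures the order was Ccr2 at 326, Cxcr3 at 172, Cxcr5 at 44.0, Cxcr4 at 8.23, Ccr7 at 3.40, Cxcr6 at 2.64, S1pr1 at 1.34 and S1pr5 at 0.0555 RPKM. In WT cultures it was Ccr2 at 341, Cxcr3 at 51.8, Cxcr6 at 26.9, Cxcr4 at 4.47, S1pr1 at 0.998, Ccr7 at 0.614, S1pr5 at 0.546 and Cxcr5 at 0.123 RPKM. Cxcr5 was thus in the third place in Id2-null cultures and in the last place in WT cultures. The replicate ranges of neighbours in the order overlapped for Ccr7, Cxcr6 and S1pr1 in Id2-null cultures and for Cxcr4, S1pr1, Ccr7, S1pr5 and Cxcr5 in WT cultures, and those of the other neighbours did not. In Immature the order was Ccr2 at 297, Cxcr3 at 189, Cxcr4 at 71.6, S1pr5 at 60.5, S1pr1 at 58.5, Cxcr6 at 16.95, Ccr7 at 6.96 and Cxcr5 at 2.24 RPKM. In M1 S1pr5 stood second at 212 RPKM, behind Ccr2 at 293 RPKM and before Cxcr3 at 104 RPKM. In M2 the order was led by S1pr5 at 367 RPKM, with Ccr2 at 128, Cxcr4 at 43.9, S1pr1 at 41.1 and Cxcr3 at 35.1 RPKM after it. S1pr5 was thus in the fourth place in Immature and in the first place in M2, but the counting intervals of Cxcr4, S1pr5 and S1pr1 overlapped in Immature, as did those of S1pr1 and Cxcr4 in M1 and of Cxcr4, S1pr1 and Cxcr3 in M2.

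The genes whose log2(CPM + 1) pattern over the 9 libraries was most like that of each receptor gene were taken from 9018 genes with a mean of 10 CPM or more, by Pearson's r and as a description only. The libraries share genotype, culture and sort, so that such values are high for many genes. Cxcr3 was closest to Cd27 (r = 0.973), a TNF receptor family member of less mature NK cells, and to Tcf7 (0.961). Cxcr5 was closest to Uvrag (0.971) and Foxo1 (0.965), and Cxcr6 to Aqp9 (0.951) and Tmem176b (0.944). S1pr1 was closest to Fos (0.992) and H2-Q7 (0.99), S1pr5 to Bloc1s4 (0.997) and Marchf6 (0.996), and Cxcr4 to Septin4 (0.987) and Acp5 (0.983). Ccr2 was closest to Dxo (0.957) and Ttc3 (0.944), and Ccr7 to Gm11478 (0.922) and Slc2a9 (0.914). Among the receptor genes S1pr1 went with Cxcr4 (0.969) and with S1pr5 (0.941), and Cxcr5 and Cxcr6 ran opposite (-0.90).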

How the data were processed

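Per the labels' protocols, SuperScript II was used on total RNA from RNeasy columns. The deposited tables hold raw counts per Entrez gene and gene lengths. Per the submitters' processing notes, the authors' tools were Subread, featureCounts and limma, with GRCm38 (mm10). The sources used here do not give versions, the strand setting or the handling of reads with several matches. Symbols and promoters came from RefSeq tables of GRCm38.p6 (25275 of 27179 identifiers matched). Each library had 4128414 to 4831831 counts, so that genes with few counts, such as Ccr7 and S1pr5, are measured poorly.

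The cultures, 3 per genotype, were tested with edgeR 4.0.16 in R 4.3.3. The fit used filterByExpr with a minimum count of 10, TMM, quasi-likelihood, genotype alone and Benjamini-Hochberg adjustment over 11022 genes. Genes with fewer counts were not tested. The same fit was also run on simulated counts, whose means and dispersion were taken from these data. An unadjusted p under 0.05 was found for 1625 genes, at a common biological coefficient of variation of 0.209. Intervals for single libraries were exact Poisson, and for ratios exact conditional binomial, at 95%. Because the reads carry no molecular identifiers and are not independent molecules, intervals and limits cover counting error only.

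Replicates of the same number deviated together (correlations of 0.359, 0.245 and 0.422 for numbers 1 to 3). Replicates 1 and 2 also went together across numbers (0.191 and 0.128), and unlike numbers that included replicate 3 gave -0.404 to -0.265. These values set replicate 3 apart more than they pair replicate 1 with 1 and 2 with 2. The pairing comes from these data and not from the labels. Replicates of a genotype differed by more than sampling noise (chi-square per degree of freedom 5.09 to 28.6), so that none was counted once for a pair. DESeq2 1.42.0, limma 3.58.1 (voom), other scalings, no filter, the block, all 9 libraries in the fit and leaving out libraries were alternatives.

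The receptor genes and the lists were chosen with earlier results of these data known. Named in the text are all 8 receptor genes, up to 6 called genes of each related list by adjusted p, and in a list without a call the 2 with the highest level. For likeness the 2 genes with the highest r were named. Members of the chromosome 9 cluster, Bcl9l, Fyco1, Klf2, Tbx21, Prdm1, Ighm, Jchain and further marker genes were chosen otherwise. Klf2, Tbx21, Prdm1, Cd3e, Cd3g, Cd8a, Cd8b1, Cd5, Lyz2, S100a9, Il7r, Tnfsf10, Ighm and Jchain were chosen after their values were seen. Some genes that the rule took are left out of the text.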

Additional observations from a re-analysis of the deposited data

How the results depend on the processing

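Cxcr5 and Cxcr3 were called higher and Cxcr6 lower under every alternative run, with log2 fold changes of 7.78 to 12.10, 1.603 to 1.92 and -3.63 to -3.04. The third gene called higher in some settings was Ccr7, whose adjusted p-values stand in the report. Against 203 genes higher and 167 lower over the whole table, DESeq2 called 314 and 266, the replicate block 371 and 325, and the fit without replicate 3 of both genotypes 539 and 475. Leaving out 1 library gave 58 to 367 higher and 47 to 257 lower. Each of the 6 omissions moved the count of higher genes by over 1.5 times. The highest counts came on omitting Id2-null replicate 3 and the lowest on omitting WT replicate 1, and the causes were not tested. The block changed no call of a receptor gene other than Ccr7. A robust prior, chosen after seeing the data, gave 210 and 167. The log2 fold change of Ccr2, not called in any setting, was between -0.278 and 0.065 on leaving out 1 library, being positive without Id2-null replicate 1 (0.012), Id2-null replicate 2 (0.065) or WT replicate 3 (0.029). Scaling by total counts moved all log2 ratios of M2 over Immature by -0.101 (Ccr2 to -1.317) and those of WT cultures over sorted libraries by a median of 0.174, with no receptor gene changing sign. Without WT replicate 1 the log2 ratio of S1pr5 in WT cultures over sorted libraries was -9.388, and without WT replicate 2 that of S1pr1 was -6.402. Cxcr5 without WT replicate 3 had 0 WT counts and no such ratio. Depth limits S1pr5, S1pr1 and Ccr7 in culture.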
